A study of Homo sapiens with 7 samples.

Results

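The genes described here encode the respiratory chain and ATP synthase, the 5 protein complexes of the mitochondrial inner membrane that carry out oxidative phosphorylation. They were taken by symbol: every protein-coding row of the deposited count table that begins with NDUFA, NDUFB, NDUFC, NDUFS, NDUFV, UQCR, ATP5 or COX4 to COX8, the genes SDHA, SDHB, SDHC, SDHD and CYC1, and the mitochondrially encoded genes of the same complexes. The rule itself uses symbols alone and no measured value, but it was chosen with earlier results of these data known. It took 112 of 60675 rows, 99 of them nuclear and 13 mitochondrial. Of these 112 genes, 103 passed the filter on low counts and were among the 16583 genes tested.

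RNA was sequenced from MDA-MB-231, an established triple-negative human breast cancer line, in 2 groups. The siCTL group (3 libraries, labelled DEPDC1 WT) received control siRNA, and the siDEPDC1 group (4 libraries, labelled DEPDC1 KD) received siRNA against DEPDC1. Both groups were transfected with Lipofectamine RNAiMAX in Opti-MEM, had their medium replaced after 8 h, and were harvested 2 days after transfection. A small interfering RNA directs cleavage of the transcript it pairs with, so the comparison asks how transcript levels differ when DEPDC1 is depleted. Nothing in the labels ties the replicates to separate cultures, so p-values cover the spread of these libraries alone, possibly a technical one. There was no group without transfection.

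Electrons enter the respiratory chain through complex I (NADH dehydrogenase) or complex II (succinate dehydrogenase), pass over ubiquinone to complex III and over cytochrome c to complex IV, and the proton gradient this builds drives complex V, the ATP synthase. All of these except complex II combine subunits from both genomes. The mitochondrial genes are transcribed as long RNAs that are cut into single messengers, largely at the transfer RNAs that lie between them, while each nuclear gene has its own promoter. Binding sites for NRF1, ETS-family factors such as GABP, and YY1 are known from many nuclear respiratory promoters.

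DEPDC1 itself was at 114, 119 and 120 CPM (counts scaled to a common library size with TMM normalisation factors) with control siRNA and at 15.3, 12.7, 13.4 and 11.9 CPM in siDEPDC1, 8.89-fold lower (log2 fold change -3.15 ± 0.08 SE, edgeR adjusted p = 1.2e-26). Library totals ran from 7690583 to 15360409 counts. Of the genes known from the line, VIM, CD44 and EGFR lay at 392 CPM or more in every library, and ESR1 and PGR reached at most 0.651 CPM. KRT18 lay at 325 to 451 CPM. ERBB2, picked as a gene that should be low in this line, lay at 61.7 to 70.6 CPM. Between the groups KRT18 was higher in siDEPDC1 (0.30 ± 0.06, edgeR adjusted p = 9.6e-05) and EGFR lower (-0.28 ± 0.06, adjusted p = 0.00018). Over all genes tested, 5707 passed an edgeR adjusted p of 0.05 (34.4%), 2732 higher (16.5%) and 2975 lower (17.9%) in siDEPDC1. Of 15 markers of other cell types, 7 were tested. Of these 7, 2 were higher (COL1A1 and CD14) and none was lower (0 at an unadjusted p of 0.05, and 0 with DESeq2). Markers under the filter went both ways. KRT5 was at 6.19, 5.05 and 0 CPM in siCTL and at 0 CPM in every siDEPDC1 library. PTPRC had means of 0.873 CPM in siCTL and 0.283 CPM in siDEPDC1, and COL1A2 of 0.155 and 0.319 CPM. ADIPOQ was at 0 in all libraries, and the summed level of the 15 was 69.5 to 76.8 CPM in siCTL and 89.5 to 93.3 CPM in siDEPDC1. The part of these markers in the differences below was not tested.

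Promoters of the nuclear genes are shown first, because most of the genes that changed are nuclear. RefSeq promoter windows (GRCh38.p14, 250 bases before to 50 bases after the annotated start) were matched for 78 of the 99 nuclear genes and searched on both strands for the NRF1 word, the half-site GCGCA joined to its own reverse complement TGCGC, the ETS word CCGGAAGT and the YY1 word AAGATGGC. The NRF1 word was in 6.41% of the 78 promoters and in 1.75% of 15843 promoters of protein-coding genes, the ETS word in 12.8% and 6.19%, and the YY1 word in 14.1% and 3.91%. The windows below are examples of each word among the genes that changed, picked by hand after their values were seen and read in the direction of the gene, with the word in capitals. Windows of COX8A and UQCRQ, which also rose and carry the ETS word, are not shown. SDHD, which fell, carries the first 2, and the others belong to genes that rose.
SDHD, NRF1 word, chr11:112086755-112086780, plus strand: ctgtgtttGCGCATGCGCgacgggtg
SDHD, ETS word reversed, chr11:112086787-112086810, plus strand: gcctctcgACTTCCGGttcaccca
NDUFA8, NRF1 word, chr9:122159766-122159791, minus strand: tgccggatGCGCATGCGCaggcgccg
COX5B, first ETS word, chr2:97646017-97646040, plus strand: gcccgcccCCGGAAGTccctcctg
COX5B, second ETS word, chr2:97646049-97646072, plus strand: gcttgttcCCGGAAGTtttgctgc
ATP5MK, ETS word, chr10:103396620-103396643, minus strand: caattcttCCGGAAGTgtgggcgg
NDUFS4, YY1 word, chr5:53560652-53560675, plus strand: cctgcagcAAGATGGCggcggtgt
UQCRC1, YY1 word, chr3:48609608-48609631, minus strand: gcagctggAAGATGGCggcgtccg

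Among the promoters of genes that rose (23 matched), 1 held the NRF1 word, 4 the ETS word and 2 the YY1 word. Among those of tested genes that were not called (47 matched), the counts were 3, 5 and 8, and among the 3 promoters of genes that fell they were 1, 1 and 0. The words did not overlap each other in the windows shown. The YY1 words shown for NDUFS4 and UQCRC1 begin at bases 22 and 24 counted from the annotated start, in the transcribed part of the window. That word contains ATG, and its overlap with start codons was not examined. Its share among the promoters therefore cannot be read as a share of upstream sites. All of these words are letter matches in the windows and were not measured as binding.

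Across the 103 tested genes, 31 were higher in siDEPDC1 (30.1%) and 4 were lower (3.88%), beside 16.5% and 17.9% of all genes tested. The median log2 fold change was 0.13, against 0.001 over all genes tested, and 75 of the 103 had a positive value. Differences were small: the largest rise, of COX7B2, was 0.49 on the log2 scale. In 33 genes every siDEPDC1 library lay above every siCTL library and in 5 every one lay below, where 17.7% and 19.6% of all tested genes, 37.3% together, were separated in these ways. Of the 31 rises 18, and of the 4 falls 3, passed the threshold in every alternative of the processing. With the trend of each library on GC content and length removed, 41 genes were higher and 9 lower, beside 20.6% and 19.6% of all genes tested. With scaling by library size alone 47 were higher and 3 lower, beside 19.6% and 15.6% of all genes.

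The split by genome was 28 higher and 3 lower of 90 tested nuclear genes (median 0.14), and 3 higher and 1 lower of 13 mitochondrial genes (median -0.01). The difference between the 2 genomes was not tested. Counts of the nuclear genes made up 0.547%, 0.571% and 0.549% of all counts in the siCTL libraries and 0.58%, 0.627%, 0.617% and 0.609% in the siDEPDC1 libraries. On this scale of library totals all 4 siDEPDC1 libraries lay above the 3 controls. With TMM scaling they did not. The summed levels were then 5564, 5757 and 5581 CPM in siCTL and 5672, 6227, 6182 and 6099 CPM in siDEPDC1, with siDEPDC1 replicate 1 below siCTL replicate 2. Counts of the 13 mitochondrial genes made up 3.55%, 3.31% and 4.18% in siCTL and 3.62%, 3.62%, 3.92% and 3.65% in siDEPDC1, and here the groups overlapped.

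**Figure D1:**
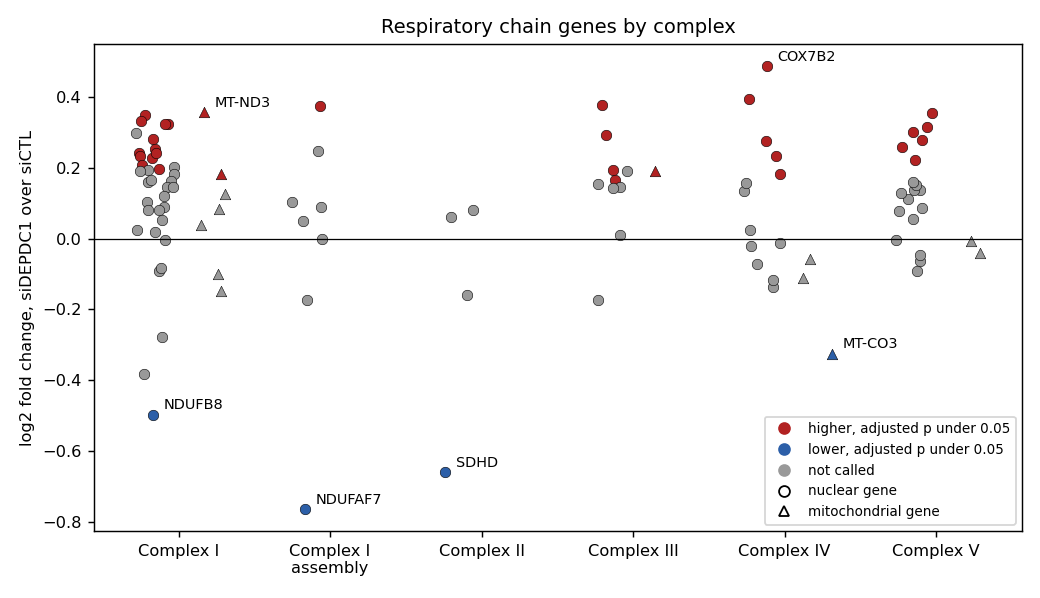
Log2 fold change (siDEPDC1 over siCTL, vertical axis) of each of the 103 tested genes, by complex; circles are nuclear and triangles mitochondrial genes, red marks genes with edgeR adjusted p under 0.05 that were higher, blue those that were lower. Most points lie above 0 in complexes I, III and V, while NDUFAF7, SDHD, NDUFB8 and MT-CO3 are the 4 genes called lower.

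Nuclear respiratory genes are short, and other short genes also had a positive median. The median annotated transcript of the nuclear genes was 989 bases, against 2686 bases over all genes tested. Among the 637 other protein-coding genes tested with transcripts of 989 bases or less, 25.1% were higher and 9.11% lower, with a median log2 fold change of 0.11. Among the 11920 with longer transcripts, 18.3% were higher and 20.9% lower, with a median of -0.01. This split was chosen after the values were seen, and the part of length in the differences of the respiratory genes was not tested. With the trend on GC content and length removed the nuclear median was 0.12. That alternative treats GC content and length together, so it cannot say how large the part of length is.

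Complex I is the largest of the complexes and takes electrons from NADH. Of its 36 tested nuclear subunits, 12 rose (33.3%) and 1 fell (2.78%), beside 16.5% and 17.9% of all genes tested. The median was 0.16, and 20 were higher with scaling by library size alone. Among the accessory subunits, which surround the catalytic part, 11 of 29 rose and 1 fell (median 0.19). Of the nuclear core subunits, which carry the flavin and iron-sulfur clusters, 1 of 7 rose, NDUFS8, and 0 fell (0 also at an unadjusted p of 0.05 or with DESeq2, median 0.12). The core share higher, 14.3%, is near the 16.5% of all genes tested, and core and accessory subunits were not tested against each other. NDUFS1, the largest core subunit, measured 163 ± 1.98 CPM (SD, n = 3) and 166 ± 2.02 CPM (n = 4), with a log2 fold change of 0.03 ± 0.05 and an adjusted p of 0.75.

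NDUFA5, an accessory subunit of the peripheral arm, was at 24.2, 25.7 and 26.5 CPM in siCTL and at 33.6, 35.1, 33.0 and 27.9 CPM in siDEPDC1 (log2 fold change 0.35 ± 0.08, edgeR adjusted p = 0.00099). All 4 siDEPDC1 libraries exceeded the controls, replicate 4 by the least. NDUFS4, whose loss causes Leigh syndrome, was at 34.4, 38.3 and 37.0 CPM in siCTL and 40.3, 51.6, 48.7 and 43.5 CPM in siDEPDC1 (0.33 ± 0.08, adjusted p = 0.0011). NDUFA8, a subunit of the side facing the intermembrane space, was at 33.1, 34 and 28.8 CPM in siCTL and 36.0, 41.5, 42.1 and 41.2 CPM in siDEPDC1 (0.32 ± 0.08, adjusted p = 0.0012). For both of these genes the groups did not overlap, and replicate 1 was the lowest siDEPDC1 library.

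NDUFS5, the nuclear complex I subunit with the highest level per transcript length (188 CPM per kilobase), rose from 93.7 ± 2.02 to 110.0 ± 5.66 CPM (log2 fold change 0.23 ± 0.06, adjusted p = 0.0027). NDUFB2 rose from 24.9 ± 1.29 to 30.3 ± 1.45 CPM (0.28 ± 0.08, adjusted p = 0.0045) and NDUFB6 from 44.4 ± 1.78 to 52.9 ± 2.5 CPM (0.25 ± 0.07, adjusted p = 0.0037), both subunits of the membrane arm. These 6 rises passed the threshold in every alternative. The other 6 did not, and rest more on single libraries.

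NDUFA2 rose by 0.24 ± 0.07 on the log2 scale (adjusted p = 0.01). NDUFS8, a core subunit with iron-sulfur clusters, rose by 0.24 ± 0.07 (adjusted p = 0.008). Without siCTL replicate 3 these adjusted p-values were 0.058 and 0.073, and over the alternatives they ran from 0.0017 and from 0.00043 up to those values. NDUFC2 rose by 0.32 ± 0.11 (adjusted p = 0.018, 0.0039 to 0.11 over the alternatives) and lost the call without siCTL replicate 1 or 2. NDUFB11 (0.24 ± 0.08, adjusted p = 0.024) and NDUFB7 (0.21 ± 0.07, adjusted p = 0.024) each lost it without any one of siCTL replicates 2 and 3 and siDEPDC1 replicates 2, 3 and 4, with adjusted p from 0.00052 to 0.13 and from 0.0012 to 0.16 over the alternatives. NDUFAB1, the mitochondrial acyl carrier protein, also rose; its adjusted p ran from 0.01 to 0.13 over the alternatives and passed 0.05 without any 1 siCTL library and without siDEPDC1 replicate 2 or 3.

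NDUFB8 was the complex I subunit that fell, at 3.09, 3.35 and 4.08 CPM in siCTL and 2.45, 2.36, 2.6 and 2.49 CPM in siDEPDC1 (log2 fold change -0.50 ± 0.19, adjusted p = 0.038). The groups did not overlap, but the values rest on 20 to 51 counts per library. Its adjusted p ran from 0.016 to 0.17 over the alternatives, and leaving out any single library except siCTL replicate 1 ended the call. In GENCODE release 29, 48.5% of its exon bases are shared with other genes, ENSG00000255339 on the same strand and HIF1AN on the opposite strand. It is 1 of 8 tested nuclear genes below a mean of 10 CPM, and 7 of those 8 share exon bases with another gene, as do 47 of all 90 tested nuclear genes: NDUFA9, NDUFA11, NDUFA13, NDUFB8, NDUFV2, UQCR11 and the readthrough ATP5MF-PTCD1. Among the called genes above that level, NDUFB11 shares 44.85% of its exon bases, NDUFB2 35.91% and SDHD 12.16%. In NDUFB11 and NDUFB2 the overlap is wholly or mostly on the opposite strand, in SDHD mostly on the same strand. The sources used here do not say how shared reads were counted, and the part of the overlaps in these levels was not tested. NDUFV2 (15 to 38 counts, log2 fold change -0.38 ± 0.25) and NDUFA13 (15 to 32 counts, -0.28 ± 0.23) had negative values with adjusted p of 0.26 and 0.37, so a difference was not detectable at this depth.

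Assembly factors build complex I without staying in it. Of 8 tested NDUFAF genes, 1 fell and 1 rose (12.5% each), both below the 17.9% and 16.5% of all genes tested. Without siDEPDC1 replicate 4 the number higher was 2, and with the GC and length trend removed the number lower was 2. NDUFAF7, an arginine methyltransferase that acts in assembly (ENSG00000003509, GRCh38 chromosome 2, 37231631 to 37253403, plus strand), had the largest fall among the 103 genes. It was at 22.5, 21.1 and 25.6 CPM in siCTL and at 14.1, 14.1, 13.8 and 12 CPM in siDEPDC1 (log2 fold change -0.77 ± 0.09, adjusted p = 5e-08), so each siDEPDC1 library lay well below each control. NDUFAF3, another factor of early assembly, was at 41.9, 47.0 and 43.9 CPM in siCTL and at 50.7, 55.8, 58.7 and 64.6 CPM in siDEPDC1 (0.38 ± 0.07, adjusted p = 0.00015), again without overlap. In the annotation 21.6% of the NDUFAF3 exon bases and 9.53% of those of NDUFAF7 are shared with other genes, in NDUFAF3 with DALRD3 on the opposite strand.

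Complex II oxidises succinate to fumarate in the citric acid cycle and passes the electrons to ubiquinone, and its 4 subunits are all nuclear. SDHD, which anchors the complex in the membrane together with SDHC, fell, and the other 3 were not called (0 of the 4 was higher, also at an unadjusted p of 0.05 or with DESeq2; 1, SDHC, with the GC and length trend removed). SDHD (ENSG00000204370, chromosome 11, 112086773 to 112120013, plus strand) was at 43.2, 40.2 and 42.9 CPM in siCTL and at 23.8, 31.7, 25.1 and 24.9 CPM in siDEPDC1 (log2 fold change -0.66 ± 0.08, adjusted p = 8.1e-08). The highest siDEPDC1 library, replicate 2, was still below the lowest control.

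SDHB, the iron-sulfur subunit and the one with the highest level per length in the complex (48.8 CPM per kilobase), was at 54.9 ± 1.71 and 57.3 ± 4.89 CPM (0.06 ± 0.07, adjusted p = 0.52). SDHC, the other anchor, was at 64.1 ± 0.68 and 67.8 ± 4.83 CPM (0.08 ± 0.06, adjusted p = 0.36). SDHA, the flavin subunit, was at 7.53 ± 0.37 and 6.72 ± 0.41 CPM (-0.16 ± 0.13, adjusted p = 0.34). Its level is uncertain because the near-identical pseudogenes SDHAP1 (12.3 CPM in siCTL) and SDHAP3 (1.82 CPM) can share its reads. SDHAF4, which assists the assembly of SDHA and lies outside the symbol rule, fell from 6.86 ± 0.41 to 4.14 ± 0.33 CPM (-0.73 ± 0.14, adjusted p = 0.00012).

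**Figure D2:**
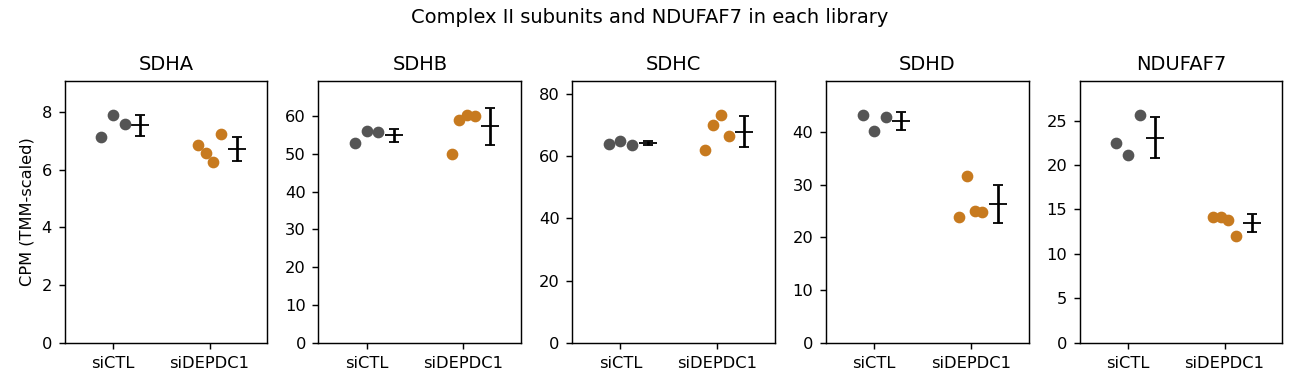
Level in CPM (vertical axes, each from 0) of the 4 complex II subunits and NDUFAF7 in each library; points are libraries, bars the mean ± SD of 3 siCTL and 4 siDEPDC1 libraries. SDHD and NDUFAF7 are lower in all 4 siDEPDC1 libraries, at 23.8 to 31.7 and 12 to 14.1 CPM, while SDHB and SDHC overlap between the groups.

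Complex III moves electrons from ubiquinol to cytochrome c. Of its 10 tested nuclear subunits 4 rose, all of them accessory, and 0 fell (0 also at an unadjusted p of 0.05 or with DESeq2, median 0.16). These were 40.0% and 0.0%, beside 16.5% and 17.9% of all genes tested. UQCR10, a small subunit of the membrane part, was at 29.4, 28.6 and 25.5 CPM in siCTL and at 33.9, 36.6, 35.7 and 38.7 CPM in siDEPDC1 (log2 fold change 0.38 ± 0.08, adjusted p = 0.00018). UQCRC1, a large subunit on the matrix side, was at 135, 141 and 125 CPM and at 147, 157, 172 and 181 CPM (0.29 ± 0.06, adjusted p = 0.00041). In both genes the groups were fully separated, and both calls held in every alternative. The number higher in the complex was 2 without siCTL replicate 1 or with no count filter, and 7 without siDEPDC1 replicate 1, with the filter of 50 counts or with scaling by library size alone.

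UQCRB, which lines the ubiquinone site, rose by 0.19 ± 0.07 (adjusted p = 0.024, 0.00044 to 0.13 over the alternatives) and lost the call without siCTL replicate 1 or 2 or siDEPDC1 replicate 2. UQCRQ also rose; its adjusted p ran from 0.014 to 0.14 over the alternatives and passed 0.05 without any 1 siCTL library and without siDEPDC1 replicate 3 or 4. The catalytic subunits CYC1, the cytochrome c1 protein, and UQCRFS1, the Rieske iron-sulfur protein, had values of 0.15 ± 0.07 and 0.15 ± 0.06 with adjusted p of 0.067 and 0.058. UQCRH had the highest level per length among the nuclear subunits of the complex (162 CPM per kilobase) and a log2 fold change of 0.14 ± 0.06 (adjusted p = 0.073). Its near-identical copy UQCRHL was at 9.46 ± 1.29 and 10.6 ± 1.47 CPM, and reads of the pair may be divided between the 2 rows.

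Complex IV, cytochrome c oxidase, hands the electrons to oxygen. Of its 13 tested nuclear subunits 5 rose and 0 fell (1 at an unadjusted p of 0.05, COX5A, and 0 with DESeq2, median 0.13). These were 38.5% and 0.0%, beside 16.5% and 17.9% of all genes tested. The number higher was 3 without siCTL replicate 2, and the number lower 2 with the GC and length trend removed. COX7A2L, which helps join complexes III and IV into supercomplexes, was at 54.3, 57.8 and 55.9 CPM in siCTL and at 67.7, 79.0, 72.2 and 75.3 CPM in siDEPDC1 (log2 fold change 0.40 ± 0.07, adjusted p = 1e-05). COX5B, a subunit on the matrix side, rose from 58.5 ± 1.06 to 68.7 ± 3.52 CPM (0.23 ± 0.06, adjusted p = 0.004). These 2 rises held in every alternative. COX4I1, with the highest level per length among the nuclear subunits of the complex (174 CPM per kilobase), was at 153 ± 3.74 and 152 ± 10.2 CPM (-0.01 ± 0.06, adjusted p = 0.91).

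Several complex IV subunits exist as paired forms, the second of which is usually restricted to muscle, lung, testis or low oxygen. COX7B2, the form of COX7B known mainly from testis (ENSG00000170516, chromosome 4, 46734827 to 46909235, minus strand), was present here and had the largest rise of the 103 genes. It was at 15.5, 17.3 and 17.4 CPM in siCTL and at 21.8, 25, 23.4 and 23.3 CPM in siDEPDC1 (0.49 ± 0.09, adjusted p = 3e-05). All siDEPDC1 libraries were above all controls, and the call held in every alternative. COX7B itself rose from 76.4 ± 1.79 to 86.5 ± 5.93 CPM (0.18 ± 0.06, adjusted p = 0.022, 0.00015 to 0.13 over the alternatives), and lost the call without siCTL replicate 1 or 2 or siDEPDC1 replicate 2.

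The other restricted forms were under the count filter. COX4I2 had at most 1 count in a library, COX6B2 at most 8, NDUFA4L2 at most 2 and COX7A1 between 3 and 16, and COX6A2 and COX8C had 0 in every library. Of their widely expressed partners, COX8A rose by 0.28 ± 0.08 (adjusted p = 0.012, 3.9e-05 to 0.06 over the alternatives; 0.06 without siCTL replicate 2), and 34.5% of its exon bases are shared with another row. COX7A2 (0.16 ± 0.07, adjusted p = 0.067), COX6B1 (0.13 ± 0.06, 0.1), COX6A1 (-0.12 ± 0.08, 0.25) and NDUFA4 (-0.02 ± 0.06, 0.81) were not called. NDUFA7 (1 to 8 counts), ATP5MGL (at most 6) and the readthrough NDUFC2-KCTD14 (0) complete the 9 genes under the filter.

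Complex V makes ATP as protons turn its c ring and central stalk. Of 19 tested nuclear genes 6 rose (31.6%) and 0 fell (0 also at an unadjusted p of 0.05 or with DESeq2), beside 16.5% and 17.9% of all genes tested. The median was 0.14, and 10 were higher without siDEPDC1 replicate 1. All 5 tested nuclear subunits of the membrane part outside the c ring rose, ATP5ME, ATP5MF, ATP5MG, ATP5MJ and ATP5MK (median 0.28). Of the F1 head and central stalk 0 of 5 subunits (median -0.003), and of the peripheral stalk 0 of 4 (median 0.10), were called in either direction. At an unadjusted p of 0.05 the numbers higher were 5, 0 and 2, and with DESeq2 4, 0 and 0, with 0 lower in each. With 16.5% of all genes tested higher and 17.9% lower, 0 called among 4 or 5 genes does not set a module apart. All 4 peripheral stalk genes had positive values, and 2 of them were separated higher in CPM. The genes were sorted into these modules with earlier results known, and the modules were not tested against each other.

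ATP5MF was at 18.2, 16.1 and 17.4 CPM in siCTL and at 19.6, 21.0, 23.6 and 24.2 CPM in siDEPDC1 (log2 fold change 0.36 ± 0.09, adjusted p = 0.0023). ATP5ME, which helps the synthase to dimerise and bend the membrane, was at 28.4, 30.6 and 28.3 CPM and at 33.4, 36.9, 40.5 and 34.7 CPM (0.32 ± 0.08, adjusted p = 0.0016). Both were separated between the groups. ATP5ME shares 61.6% of its exon bases with MYL5 on the opposite strand. ATP5MJ rose by 0.26 ± 0.07 (adjusted p = 0.0057) and ATP5MK, which stabilises synthase dimers, by 0.22 ± 0.07 (adjusted p = 0.0076). ATP5MG rose by 0.28 ± 0.10 (adjusted p = 0.021, 0.0058 to 0.11 over the alternatives) and lost the call when siDEPDC1 replicate 2 or siCTL replicate 1 or 3 was left out.

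ATP5MC1, ATP5MC2 and ATP5MC3 encode the same mature c-ring protein with different import signals. ATP5MC3 was at 104, 113 and 109 CPM in siCTL and at 124, 140, 141 and 132 CPM in siDEPDC1, without overlap (0.30 ± 0.06, adjusted p = 0.00013). ATP5MC2 was at 117 ± 3.03 and 129 ± 8.19 CPM (0.14 ± 0.06, adjusted p = 0.067), and ATP5MC1 at 40.1 ± 0.75 and 38.9 ± 4.47 CPM (-0.05 ± 0.08, adjusted p = 0.69). ATP5F1B, the catalytic beta subunit, was the most abundant nuclear gene per length (314 CPM per kilobase), at 577 ± 15.3 and 576 ± 25 CPM (-0.003 ± 0.05, adjusted p = 0.98). The epsilon subunit gene ATP5F1E was at 158 ± 3.41 and 148 ± 7.01 CPM (-0.09 ± 0.06, adjusted p = 0.22). Its processed pseudogene ATP5F1EP2, which is not among the 112, was under the filter at 0.528 ± 0.08 and 0.407 ± 0.10 CPM. ATP5IF1, the inhibitor that blocks the synthase from running backwards, was at 68.9 ± 4.4 and 76.2 ± 7.96 CPM (0.14 ± 0.07, adjusted p = 0.12).

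**Figure D3:**
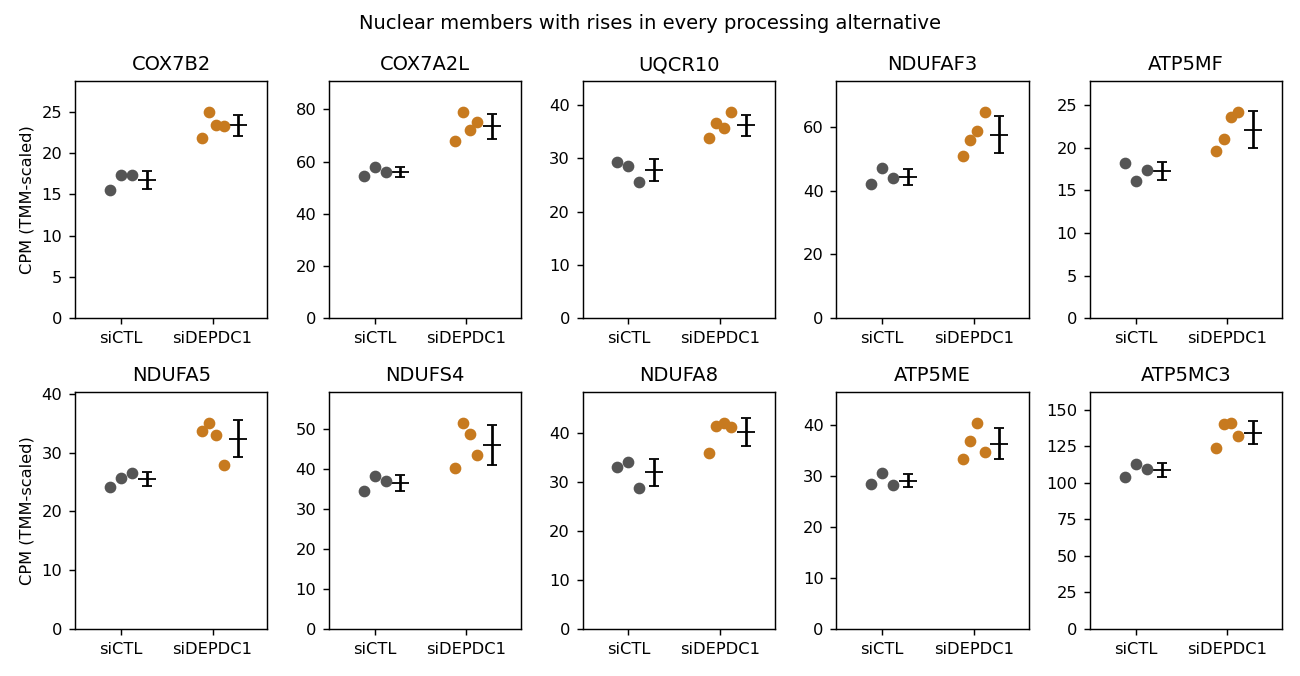
Level in CPM (vertical axes, each from 0) of 10 nuclear genes that passed the threshold in every alternative of the processing; points are libraries, bars the mean ± SD of 3 siCTL and 4 siDEPDC1 libraries. In each panel the 4 siDEPDC1 libraries lie above the 3 siCTL libraries, for example COX7B2 at 21.8 to 25 against 15.5 to 17.4 CPM.

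The siDEPDC1 libraries were not equally high. In 21 of the 28 nuclear genes that rose, replicate 1 was the lowest of the 4. With that library left out 45 of the tested respiratory genes were called higher instead of 31, beside 18.0% of all genes tested, and without siCTL replicate 2 the number was 22, beside 12.7% of all genes. All 31 rises kept their sign in every alternative.

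The 13 mitochondrial messengers were 1 lower and 3 higher. In genome order on the heavy-strand transcript, MT-ND1 was at 1585 ± 184 and 1431 ± 89.6 CPM (log2 fold change -0.15 ± 0.07, adjusted p = 0.079), MT-ND2 at 2101 ± 344 and 2157 ± 177 CPM (0.04 ± 0.08, 0.76), and MT-CO1 at 7884 ± 737 and 7303 ± 224 CPM (-0.11 ± 0.07, 0.19). MT-CO2, with the highest level per length of all 112 genes (7128 CPM per kilobase), was at 4986 ± 683 and 4792 ± 236 CPM (-0.06 ± 0.07, 0.56). The overlapping pair MT-ATP8 and MT-ATP6, which encode membrane subunits of the ATP synthase, were at 310 ± 84.3 and 301 ± 25.4 CPM (-0.04 ± 0.19, 0.9) and at 3169 ± 558 and 3155 ± 200 CPM (-0.01 ± 0.08, 0.96). None of these 6 was called.

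MT-CO3, the third mitochondrial subunit of complex IV (chromosome M, 9207 to 9990, plus strand), was at 4056, 3841 and 4455 CPM in siCTL and at 3095, 3249, 3486 and 3318 CPM in siDEPDC1 (log2 fold change -0.33 ± 0.06, edgeR adjusted p = 8.8e-05). Its neighbour MT-ND3, a subunit of complex I (10059 to 10404), was at 390, 391 and 466 CPM in siCTL and at 484, 545, 582 and 519 CPM in siDEPDC1 (0.36 ± 0.07, adjusted p = 4.6e-05). The groups did not overlap for either gene, and both calls held in every alternative. Only the gene of the glycine transfer RNA lies between them, so the changes of opposite sign belong to adjacent stretches of 1 primary transcript. MT-CO3 gave 10.4, 9.82 and 9.55 counts per MT-ND3 count in siCTL and 6.4, 5.96, 5.99 and 6.39 in siDEPDC1 (9.93 ± 0.44 and 6.19 ± 0.24), a ratio that does not depend on the scaling of the libraries.

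Downstream, MT-ND4L was at 632 ± 43 and 590 ± 37.4 CPM (-0.10 ± 0.06, adjusted p = 0.19), MT-ND4 at 5780 ± 879 and 6313 ± 347 CPM (0.13 ± 0.07, 0.19) and MT-ND5 at 3433 ± 477 and 3641 ± 186 CPM (0.09 ± 0.07, 0.37). MT-ND6, the only messenger of the light strand (14149 to 14673, minus strand), rose from 1037 ± 172 to 1177 ± 35.7 CPM (0.18 ± 0.07, adjusted p = 0.049). MT-CYB, cytochrome b of complex III (14747 to 15887), rose from 1870 ± 179 to 2135 ± 134 CPM (0.19 ± 0.06, adjusted p = 0.019). For MT-ND6 and MT-CYB the groups overlapped in CPM. The strand setting of the counting is unknown here, so reads of MT-ND6 and of RNA antisense to it cannot be told apart.

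These last 2 calls depended on which libraries were used, and siCTL replicate 3 was the library with the largest mitochondrial share. Over the alternatives the adjusted p of MT-CYB ran from 0.0017 to 0.18, with the call lost without siCTL replicate 1 or 2 or siDEPDC1 replicate 3, and that of MT-ND6 from 7.3e-05 to 0.34, lost without any library except siCTL replicate 3. Without siCTL replicate 3, 6 of the 13 were higher, beside 14.3% of all genes tested: MT-ND3 (0.45), MT-ND6 (0.33), MT-CYB (0.27), MT-ND4 (0.25, adjusted p = 0.0059), MT-ND5 (0.20, adjusted p = 0.024) and MT-ATP8 (0.20, adjusted p = 0.02), which had been at -0.04. MT-CO3 was still lower without it (-0.27, adjusted p = 0.002).

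Expressed as a share of the counts of the 13 messengers, the siDEPDC1 libraries were separated from the controls in 8 of 13 genes. This scale has no counterpart over all genes. In CPM 1 of the 13 was separated higher and 1 lower, beside 17.7% and 19.6% of all genes tested. MT-CO3 took 11.2%, 11.5% and 10.5% in siCTL and 8.73%, 9.03%, 8.87% and 9.08% in siDEPDC1, and MT-ND3 1.08%, 1.17% and 1.1% and then 1.36%, 1.51%, 1.48% and 1.42%. MT-ND1 (4.25% ± 0.08 and 3.89% ± 0.07) and MT-CO1 (21.2% ± 0.68 and 19.8% ± 0.38) also had lower shares. MT-ND4 (15.5% ± 0.41 and 17.1% ± 0.14), MT-ND5 (9.19% ± 0.16 and 9.89% ± 0.40), MT-ND6 (2.77% ± 0.13 and 3.2% ± 0.09) and MT-CYB (5.02% ± 0.16 and 5.8% ± 0.10) had higher ones. Shares must add up, so they show unequal change among the 13 and not which of them stayed constant.

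**Figure D4:**
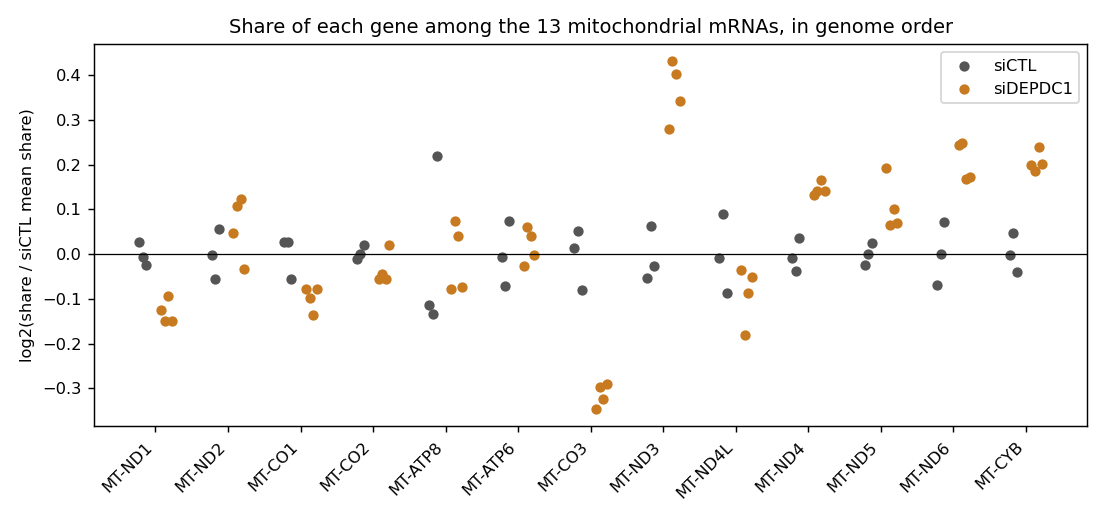
Share of each gene among the counts of the 13 mitochondrial messengers, as log2 of the library's share over the siCTL mean share (vertical axis), in genome order; points are libraries. MT-CO3 lies below and MT-ND3 directly after it above all controls, with mean shares of 11.1% and 8.93% and of 1.12% and 1.45%.

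Nuclear copies of mitochondrial DNA can take or give reads. The copy MTCO3P12 on chromosome 1 had 44 to 111 counts per library and was lower as well (-0.49 ± 0.16, adjusted p = 0.015), while MT-CO3 had 26768 to 58522. MTATP6P1 (3236 to 5574 counts) and MTCO1P12 were not called (-0.05 ± 0.07 and -0.16 ± 0.07, adjusted p = 0.66 and 0.053).

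Beside the messengers, the mitochondrial genome encodes ribosomal and transfer RNAs, of which 10 of 24 passed the filter. Of these 10, 4 were lower (40.0%, beside 17.9% of all genes tested) and 0 higher (median -0.21), and the number higher was 0 also at an unadjusted p of 0.05 and in every alternative, DESeq2 included. MT-RNR1, the RNA of the small ribosomal subunit, was at 883, 772 and 830 CPM in siCTL and 692, 725, 632 and 651 CPM in siDEPDC1 (-0.29 ± 0.06, adjusted p = 0.00016). Counts on MT-TY, the gene of the tyrosine transfer RNA, fell from 24.9 ± 0.30 to 20.8 ± 0.39 CPM (-0.26 ± 0.08, adjusted p = 0.0097, 0.011 to 0.052 over the alternatives, the last with the trend on GC content and length removed). The strand setting and RNA selection are unknown here. Reads on transfer RNA genes can therefore not be assigned to the mature RNA, an uncut precursor or antisense RNA. The number lower was 2 without siCTL replicate 3.

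Other genes that serve the chain were read from lists outside the symbol rule. In the list for mitochondrial DNA maintenance, transcription and RNA processing, 8 of 35 were lower (22.9%) and 5 higher (14.3%; median -0.08), shares close to the 17.9% and 16.5% of all genes tested. TFAM, which packages mitochondrial DNA and starts its transcription, was at 83.1, 83.2 and 86.4 CPM in siCTL and at 63.7, 60.2, 56.4 and 46.7 CPM in siDEPDC1 (-0.57 ± 0.07, adjusted p = 1.3e-07). PTCD2, known for the processing of the cytochrome b messenger, fell from 18.8 ± 0.52 to 12.5 ± 0.95 CPM (-0.59 ± 0.09, adjusted p = 5.7e-06). FASTKD5, which is needed to release messengers that lack a transfer RNA on one side, MT-CO3 among them, rose from 21.8 ± 0.68 to 27.3 ± 0.84 CPM (0.33 ± 0.08, adjusted p = 0.001). TOP1MT, the mitochondrial topoisomerase, rose by 0.23 ± 0.08 (adjusted p = 0.018) but passed 0.05 without siCTL replicate 1 or 2 (0.0085 to 0.089 over the alternatives). The number lower in this list was 4 without siDEPDC1 replicate 3 and 5 without siCTL replicate 1, and the number higher was 1 without siCTL replicate 2, 2 without siCTL replicate 1 and 3 without siDEPDC1 replicate 2. With DESeq2 the list had 4 lower and 1 higher, and with no count filter 1 higher.

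Of 17 tested genes for the mobile carriers and ubiquinone synthesis 4 were lower (23.5%) and 3 higher (17.6%; median -0.004), near the shares over all genes tested. CYCS, cytochrome c, which carries electrons from complex III to complex IV, was at 142, 150 and 140 CPM in siCTL and at 100, 117, 107 and 92.4 CPM in siDEPDC1 (-0.47 ± 0.06, adjusted p = 4.6e-07). PDSS1, which makes the side chain of ubiquinone, fell from 9.67 ± 0.42 to 6.96 ± 0.56 CPM (-0.49 ± 0.12, adjusted p = 0.0017). COQ10B and COQ7, which act in ubiquinone function and synthesis, rose by 0.30 ± 0.08 (adjusted p = 0.003) and 0.37 ± 0.10 (adjusted p = 0.0034).

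Of 51 tested assembly factors outside the symbol rule 7 were lower (13.7%) and 6 higher (11.8%; median -0.01), both below the shares over all genes tested. Beside SDHAF4, COA4, a twin-cysteine protein of complex IV assembly, fell from 37.9 ± 0.59 to 29.7 ± 1.01 CPM (-0.35 ± 0.07, adjusted p = 0.0002). HIGD2A rose from 36.0 ± 2.02 to 46.4 ± 3.91 CPM (0.37 ± 0.08, adjusted p = 0.00022), and ECSIT, a complex I assembly factor, rose by 0.25 ± 0.08 (adjusted p = 0.014, 0.0022 to 0.087 over the alternatives; 0.087 without siCTL replicate 3). Without siCTL replicate 1 this list had 4 lower and 3 higher, with DESeq2 4 lower, and with the GC and length trend removed 11 higher.

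Among 26 genes of the citric acid cycle and pyruvate entry 6 were lower and 6 higher (23.1% each; median -0.003), beside 17.9% and 16.5% of all genes tested. Subunits of the pyruvate dehydrogenase complex had the smallest adjusted p. PDHB was at 96.6, 102 and 105 CPM in siCTL and at 61.5, 66.5, 56.1 and 60.5 CPM in siDEPDC1 (-0.72 ± 0.06, adjusted p = 2.5e-11), and DLAT fell from 85.3 ± 2.1 to 54.9 ± 2.68 CPM (-0.64 ± 0.06, adjusted p = 2.8e-10). PDK1, a kinase that inactivates that complex, rose from 40.8 ± 1.58 to 59.3 ± 5.0 CPM (0.54 ± 0.07, adjusted p = 2.6e-07), and IDH2, the mitochondrial NADP-dependent isocitrate dehydrogenase, from 24.6 ± 1.17 to 34.1 ± 1.28 CPM (0.47 ± 0.08, adjusted p = 6.9e-06). Genes around the complex were mixed. PDK2 also rose and the subunit PDHX fell, but the kinase PDK4 fell (-0.68 ± 0.15, adjusted p = 0.0004). The phosphatase PDP1, which acts against these kinases, rose (0.32 ± 0.06, adjusted p = 0.00011). The subunit PDHA1 was not called (0.02 ± 0.07, adjusted p = 0.88).

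Of 10 tested regulators of respiratory chain genes 1 was lower (10.0%) and 2 were higher (20.0%), beside 17.9% and 16.5% of all genes tested. The number lower was 3 without siDEPDC1 replicate 4 and 2 with the GC and length trend removed. YY1 fell from 157 ± 4.47 to 116 ± 8.04 CPM (-0.43 ± 0.06, adjusted p = 4.3e-07). NRF1 (-0.22 ± 0.10, adjusted p = 0.087) and GABPA, a subunit of GABP (-0.02 ± 0.07, adjusted p = 0.85), were not called. A link between these levels and the promoter words was not tested. PPARGC1A, the coactivator PGC-1alpha, rose from 6.65 ± 0.55 to 9.63 ± 0.76 CPM (0.52 ± 0.12, adjusted p = 0.0012), and PPARD by 0.39 ± 0.06 (adjusted p = 9.7e-06).

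The 3' UTRs were searched for the word GATAACT, which was chosen from an earlier search of these same data for words carried by genes that fell. Among tested genes whose kept GENCODE transcript has a 3' UTR of at least 50 bases, 2 of 86 respiratory genes (2.33%) and 902 of 12148 genes overall (7.43%) carried it. The 2 were NDUFA5, with 2 copies, which rose, and SDHC, with 1 copy, which was not called. A longer 3' UTR has more room for a word, and those of the 2 carriers have 5122 and 12907 bases. The shares were not matched for 3' UTR length, so their difference cannot be read as a property of the respiratory genes. The windows are read from the transcripts 5′ to 3′, with the word in capitals.
NDUFA5, first copy, 3' UTR base 2799 of 5122: tatatttagGATAACTataggataa
NDUFA5, second copy, 3' UTR base 4272 of 5122: ttttctaaaGATAACTatttttttt
SDHC, 3' UTR base 6984 of 12907: atctggaaaGATAACTcatgagctt
The genes that fell, NDUFAF7, SDHD and NDUFB8, held no copy in the transcript searched, and another isoform could hold one.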

How the data were processed

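Per the labels' protocols, libraries were made from total RNA with a TruSeq RNA kit and read as pairs of 100 bases. The authors deposited raw counts per Ensembl gene and library, 1 table for all 7 libraries. Per the submitters' processing notes the build was GRCh38 and the tools FastQC, STAR 2.7.9a and DESeq2. The counter, annotation release, strand setting, RNA selection and siRNA sequence are unknown here: not given in the sources used.

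Counts were filtered with edgeR's filterByExpr and tested in R 4.3.3 with edgeR 4.0.16 (TMM, robust glmQLFit, glmQLFTest, two-sided, Benjamini-Hochberg over all 16583 genes, threshold 0.05), with group as the only term. "Rose", "fell", "higher", "lower" and "called" mean past that threshold. Levels are mean ± SD of TMM-scaled CPM, with the SE of a log2 fold change taken from the F statistic. Levels per kilobase use 1 annotated transcript per gene. Coordinates, lengths and overlaps come from GENCODE release 29, promoters from RefSeq, and biotypes and symbols were matched by Ensembl identifier. The fit was tested on simulated data.

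Members, lists and modules were chosen with earlier results of these data known. Values are given for DEPDC1, all mitochondrial members, the 30 called members with the smallest adjusted p, the most abundant member per length of each complex, isoform pairs, ATP5IF1, and up to 2 called genes per direction of each list. NDUFB8, UQCRB, PDHX, PDK2, PDK4, PDP1 and the uncalled genes named beside these were chosen after their values were seen. FASTKD4 had no match by symbol. Alternatives were DESeq2 size factors, library size alone, no filter, DESeq2 1.42.0, a minimum of 50 counts throughout a group, a replicate block, removal of the GC and length trend (loess, span 0.4; known for 98.9% of tested genes), and leaving out each library.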

Additional observations from a re-analysis of the deposited data

Results flagged for a closer look

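Among 64 sets of 4 siDEPDC1 values examined, 6 had a sample far from the other 3, by Dixon's test of the gap to the nearest value as a share of the whole range; chance flags about 1 in 20 such sets. SDHB was low in replicate 1 at 50 CPM, against 59.0 to 60.2 CPM in the others (gap 0.885 of the range). NDUFA8 was low in replicate 1 at 36.0 CPM, against 41.2 to 42.1 CPM (0.851), and so was ATP5MJ at 39.0 CPM, against 44.9 to 45.9 CPM (0.861). NDUFAF7 was low in replicate 4 at 12 CPM, against 13.8 to 14.1 CPM (0.841). MT-ND1 was high in replicate 3 at 1565 CPM, against 1377 to 1400 CPM (0.879). The share of counts in the 13 mitochondrial messengers was high in replicate 3 as well, at 3.92%, against 3.62% to 3.65% (0.912).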

How the results depend on the processing

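The number of respiratory genes called lower was 4, 3 or 4 in all alternatives except removal of the GC and length trend, which gave 9. The number higher was 31 and ran from 26 to 42 under the scaling, filter, tool and trend alternatives other than library size alone, which gave 47. Of the mitochondrial genes, 2 were lower with the GC and length trend removed and 2 with no count filter, against 1. Leaving out 1 library gave 3 to 4 genes lower, 22 to 45 higher, 1 to 2 mitochondrial genes lower and 1 to 6 mitochondrial genes higher. MT-ATP8 changed sign without siCTL replicate 3, to 0.198 (adjusted p = 0.02) from -0.041; over the single-library omissions it ran from -0.178 to 0.198. The cause of these shifts was not tested. A replicate block on numbers 1 to 3 gave 25 genes higher and 3 lower (4 lower among the outside assembly factors, against 7, and 2 lower among the regulators, against 1), against 34 and 3 in the same 6 libraries without it; same-numbered libraries correlated at -0.116, -0.0423 and 0.003, so the numbers were not taken as pairs. Depth limits the genes under 10 CPM: NDUFB8 (20 to 51 counts) lost its call in most alternatives.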
